A study of Mus musculus with 6 samples.

Results

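The extracellular matrix of the heart was examined gene by gene in RNAseq of mice that lack 2 variants of a bicarbonate transporter. The genes were a chosen list of 42 collagens, basement membrane components, matrix glycoproteins, proteoglycans, matrix enzymes and enzyme inhibitors. They were found by gene symbol in the deposited table of 16018 genes. All 42 were present, all had a mean of at least 10 normalized counts, and 16016 of the 16018 genes were tested. By role, 6 of the 42 encode chains of fibrillar collagens, 13 encode basement membrane proteins, 6 encode chains of other collagens, 6 encode glycoproteins and elastic fibre proteins, 3 encode small leucine-rich proteoglycans, 5 encode matrix enzymes and 3 encode inhibitors of those enzymes.

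Fibrillar collagens are triple helices that assemble into the load-bearing fibres between heart muscle cells. They are made mainly by fibroblasts and are crosslinked by lysyl oxidases. Basement membranes are thin sheets of laminin and type IV collagen networks, joined by nidogen and perlecan, that wrap each cardiomyocyte and underlie the endothelium of each vessel. Matrix metalloproteinases cut these proteins, and tissue inhibitors of metalloproteinases (TIMPs) restrain them.

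The samples were hearts of 3 female NBCe1-B/C KO mice, here KO b/c, and 3 female WT mice, all between 4 and 5 weeks of age and on a C57BL/6J background. NBCe1 is an electrogenic sodium bicarbonate cotransporter encoded by *Slc4a4*. KO b/c mice lack its variants NBCe1-B and NBCe1-C from conception and in all tissues, keep NBCe1-A, and often die near the age studied, so the loss was neither restricted to the heart nor induced in the adult. WT mice carry the intact gene. Below, KO b/c stands for the libraries labelled so.

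*Slc4a4* (chromosome 5 of GRCm38, 88886818 to 89239653) was listed at 264, 944.8 and 268.7 normalized counts in the libraries labelled KO b/c replicates 1, 2 and 3, while the WT values were 675.1, 822.2 and 788.8. For the targeted gene, the library labelled KO b/c replicate 2 thus lay above every WT library, and results below are given with and without it. Over all 6 libraries its log2 fold change of -0.90 was not significant (standard error 0.42, adjusted p = 0.239 by limma; exact permutation test, two-sided, p = 0.4). The smallest p such a test allows with 3 libraries a group is 0.1. Reads on genes ran from 42619258 to 49100802 in the libraries labelled KO b/c and from 41364857 to 42037397 in WT. Counting error was at most 7.99% of the value for any of the 42 genes, and it was 0.50% for the gene with the most reads, *Sparc*. Markers of cardiomyocytes summed to between 3564140 and 4667970 normalized counts per library over 14 genes, and no marker of this list was at 0, which fits the heart as labelled. In adipocyte markers KO b/c replicate 1 stood apart. The median deviation of 7 such genes from their mean was -3.39 in this library and between -0.10 and 1.31 in the other 5 on the log2 scale, and *Ucp1* of brown fat was at 17.9 normalized counts in it and between 524.5 and 2948 in the others. Over all libraries 7 of 7 had a log2 fold change below 0, with a median of -1.23, and the part of this difference in the matrix values was not tested.

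Values are normalized counts, that is, reads over a size factor per library. They are not scaled to gene length, so levels of different genes are compared only per kb of the longest annotated transcript. A fold change is the difference, KO b/c minus WT, of mean log2(normalized count + 1). It was tested with limma over all genes tested, with p-values adjusted by Benjamini-Hochberg and held to 0.05. Because 0 genes of the whole table pass this test, with 13.0% higher and 10.5% lower in KO b/c at an unadjusted p under 0.05, each group of genes is also described by how many of its members were apart, meaning that every library labelled KO b/c lay above, or below, every WT library. Of all genes tested, 15.6% were apart and higher in KO b/c and 14.6% were apart and lower, or 30.2% in either direction. The count test DESeq2, run on the recovered reads as an alternative, called 8.22% of the genes it tested higher and 5.03% lower at an adjusted p under 0.05, or 13.2% in all. In hearts measured in bulk, fewer cells of a type and less RNA per cell cannot be told apart.

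The region before the start of a gene holds part of the sequence that sets its expression. The 250 bases upstream of the annotated start (RefSeq, GRCm38.p6) were read for 26 of the 42 genes, which have 29 starts. The 4 windows printed here end just before a start that GENCODE M21 also gives, to within 2 bases, and overlap no other gene. They stand for 4 of the patterns below. *Col3a1* differed little between the genotypes, *Col6a3* was apart and higher in KO b/c, *Lama5* is a laminin chain whose groups overlapped, and *Postn* was the one gene of the 42 that DESeq2 called lower. Each is written 5′ to 3′ on the strand of the gene. Capitals mark a CCAAT box (CCAAT or its complement ATTGG), a GC box (GGGCGG or CCGCCC) or a TATA box (TATAAA or TTTATA).
Col3a1, chr1:45311288-45311537, plus strand: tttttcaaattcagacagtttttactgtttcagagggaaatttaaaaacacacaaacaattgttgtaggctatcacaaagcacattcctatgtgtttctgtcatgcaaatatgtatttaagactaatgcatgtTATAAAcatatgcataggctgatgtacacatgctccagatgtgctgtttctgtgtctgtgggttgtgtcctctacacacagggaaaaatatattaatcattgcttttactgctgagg
Col6a3, chr1:90843972-90844221, minus strand: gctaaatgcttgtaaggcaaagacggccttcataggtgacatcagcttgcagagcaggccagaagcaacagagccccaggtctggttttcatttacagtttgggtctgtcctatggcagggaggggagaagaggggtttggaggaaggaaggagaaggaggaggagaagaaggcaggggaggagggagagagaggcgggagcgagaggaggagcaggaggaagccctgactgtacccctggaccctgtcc
Lama5, chr2:180225860-180226109, minus strand: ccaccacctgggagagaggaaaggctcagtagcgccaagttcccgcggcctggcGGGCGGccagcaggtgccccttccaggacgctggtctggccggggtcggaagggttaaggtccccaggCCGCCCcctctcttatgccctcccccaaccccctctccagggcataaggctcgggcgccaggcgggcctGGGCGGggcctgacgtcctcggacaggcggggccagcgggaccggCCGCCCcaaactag
Postn, chr3:54360857-54361106, plus strand: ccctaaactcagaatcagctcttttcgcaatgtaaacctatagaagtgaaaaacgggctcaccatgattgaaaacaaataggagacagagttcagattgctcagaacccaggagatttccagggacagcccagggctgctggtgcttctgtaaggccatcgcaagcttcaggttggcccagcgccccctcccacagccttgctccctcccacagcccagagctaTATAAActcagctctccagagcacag
The *Postn* window holds a TATA box that begins 26 bases before the start, and the *Col3a1* window holds one that begins 117 bases before it. The *Lama5* window holds 4 GC boxes and no TATA box, and the *Col6a3* window holds none of the 3 motifs. A TATA box was found in 2 of the 29 windows (6.90%) and in 12.4% of 32851 mouse windows of the same length. A GC box was found in 18 of 29 (62.1%) against 32.7% of all windows, and a CCAAT box in 10 of 29 (34.5%) against 33.8%. Among the 11 basement membrane windows, 6 held a GC box, 5 a CCAAT box and 0 a TATA box. Windows of genes that overlap or share a start are not independent, and a match is a description of the letters, not of a bound factor.

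Across the 42 genes, 32 had a log2 fold change above 0, where 49.2% of all genes tested did, and the median was 0.15, where that of all genes tested was -0.004. The groups of libraries were apart and higher in KO b/c for 17 genes, apart and lower for 0, and overlapping for 25. After rescaling of every library to the same total, 12 were apart and higher (10.4% of all genes), and *Lamb2*, *Col6a1*, *Fn1*, *Bgn* and *Mmp2* overlapped. By limma, 0 of the 42 had an adjusted p under 0.05. The lowest adjusted p was 0.0815, which was also the lowest of all genes tested. At an adjusted p under 0.1 there were 11 genes, beside 1163 of the 16016 genes tested. At an unadjusted p under 0.05 there were 16 higher and 2 lower, beside 13.0% and 10.5% of all genes. The quasi-likelihood test of edgeR called 0 of the 42. At an unadjusted p under 0.05 it had 18 of them, beside 3837 of the 16016 genes tested. DESeq2 called 14 (13.2% of the genes it tested), of which 13 were higher (8.22%) and *Postn* was lower (5.03%). Without the library labelled KO b/c replicate 2, DESeq2 called 11 higher (7.16% of the genes it tested) and 0 lower (3.66%), of which 9 had also been called with it. In the same 5 libraries, 18 genes were apart and higher (20.7% of all genes) and 0 lower (19.4%). With all libraries, DESeq2 called 8 of 13 basement membrane genes, 2 of 6 fibrillar collagen chains, 2 of 6 other collagen chains, 2 of 6 glycoproteins and 0 of 11 proteoglycans, enzymes and inhibitors. It called 715 of the 3345 tested genes with a transcript of at least 5000 nt. The difference between roles was not tested, and the median transcript was 6091 nt long for basement membrane genes and 3503 nt for enzymes and inhibitors.

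**Figure D1:**
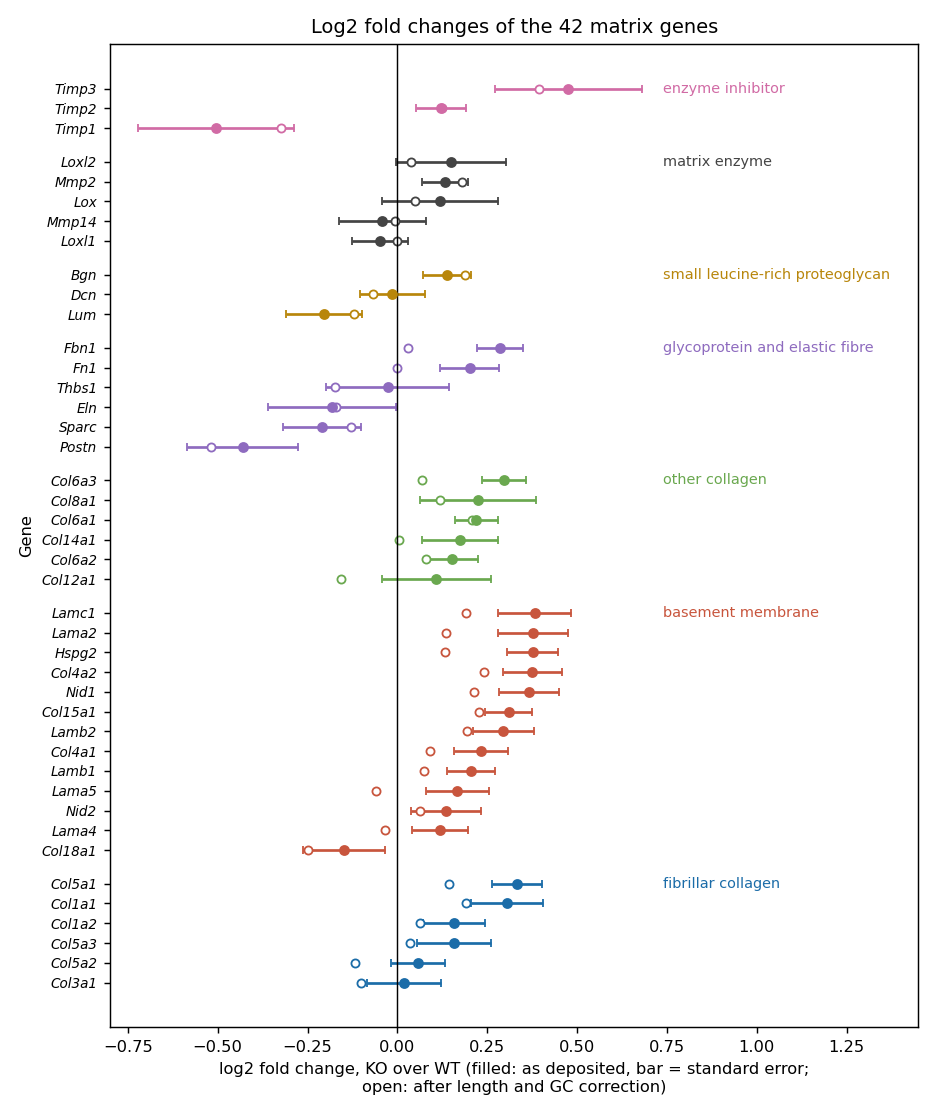
Log2 fold changes (x axis, KO b/c over WT) of the 42 genes (y axis), grouped by role in colour. Filled points are the values as deposited with their standard error (n = 3 per group) and open points are the values corrected for length and GC content of the transcript. The filled basement membrane points lie to the right of 0 except *Col18a1*, and the open points lie closer to 0 for 32 of the 42 genes.

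Of the 17 genes that were apart, 9 encode basement membrane proteins. Of the 13 basement membrane genes, 9 were apart and higher in KO b/c and 4 overlapped, with a median log2 fold change of 0.30. The 9 were the laminin chains *Lamc1*, *Lama2*, *Lamb2* and *Lamb1*, both type IV collagen chains, *Hspg2*, *Nid1* and *Col15a1*. DESeq2 called 8 of the 9 higher, all but *Lamb1*, and limma called 0, with adjusted p values from 0.0815 upward. The median transcript of the 13 genes was 6091 nt long. Of the 3345 tested genes with a transcript of at least 5000 nt, 39.9% were apart and higher. Their median log2 fold change was 0.18, and DESeq2 called 697 of them higher.

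Laminins are cross-shaped trimers of an alpha, a beta and a gamma chain that start the assembly of the sheet. The gamma 1 chain *Lamc1* (ENSMUSG00000026478, chromosome 1, 153218922 to 153332786) was listed at 16430.0, 12478 and 13947 normalized counts in the libraries labelled KO b/c replicates 1, 2 and 3 and at 11045, 10199.6 and 11476 in WT replicates 1, 2 and 3. All KO b/c values lay above all WT values, and the highest was that of KO b/c replicate 1 (log2 fold change 0.38, standard error 0.10, adjusted p = 0.0903 by limma and 0.00595 by DESeq2). *Lama2* (ENSMUSG00000019899, chromosome 10, 26980036 to 27619758), the alpha chain of the laminin that surrounds muscle fibres, had 7300.5, 5638 and 6335 normalized counts in KO b/c and 4821, 4659 and 5291 in WT, in the same order of replicates. It was likewise apart, with the largest value again in KO b/c replicate 1 (log2 fold change 0.38, standard error 0.10, adjusted p = 0.0883 by limma and 0.00665 by DESeq2). *Lamb2* (ENSMUSG00000052911, chromosome 9, 108479736 to 108490530), the beta 2 chain, was at 16541, 17506 and 17142 in KO b/c and 12659.8, 15629.9 and 13581 in WT. The KO b/c libraries lay close together in this gene, whereas WT replicate 2 stood above the other WT libraries (log2 fold change 0.30, standard error 0.084, adjusted p = 0.0995 by limma and 0.0188 by DESeq2). The beta 1 chain *Lamb1* was apart by a smaller margin, from 7157 to 8088 normalized counts in KO b/c against 6489.6 to 6881 in WT, and missed both thresholds (log2 fold change 0.21, adjusted p = 0.121 by limma and 0.0581 by DESeq2). *Lama4* and *Lama5*, alpha chains of vascular laminins, overlapped between the genotypes, with log2 fold changes of 0.12 and 0.17. *Lama4* ran from 5471 to 6199 normalized counts in KO b/c against 4869 to 5608 in WT. *Lama5* ran from 5455 to 5937 normalized counts in KO b/c against 4679.8 to 5801 in WT, where WT replicate 1 lay inside the KO b/c range.

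Type IV collagen forms the network that gives the sheet its strength. *Col4a1* and *Col4a2* encode the alpha 1 and alpha 2 chains of its commonest form, and they lie head to head on chromosome 8 of GRCm38, *Col4a1* on the minus strand from 11198423 to 11312826 and *Col4a2* on the plus strand from 11312805 to 11449287. Their annotated starts overlap by 22 bases. *Col4a2* was listed at 32280.4, 27627 and 27352 normalized counts in KO b/c and 23070.0, 22371 and 21651 in WT, and *Col4a1* at 37472, 34876 and 32869 and 31298, 29224 and 28945. Every KO b/c value was above every WT value in both genes. For *Col4a2* the log2 fold change was 0.38 (with a standard error of 0.082, adjusted p = 0.0815 by limma and 0.000952 by DESeq2) and for *Col4a1* 0.23 (standard error 0.076, adjusted p = 0.123 and 0.03).

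Perlecan, nidogen and the collagens of the outer face of the sheet bind these networks together. Perlecan, the heparan sulfate proteoglycan encoded by *Hspg2* (ENSMUSG00000028763, chromosome 4, 137468769 to 137570630), was at 26569.9, 25269 and 23459 in KO b/c and 19601, 19679.8 and 18666 in WT. The WT libraries lay close together, and the gap to the lowest KO b/c library was wider than the range of either group (log2 fold change 0.38, standard error 0.070, adjusted p = 0.0815 by limma and 0.000159 by DESeq2). Nidogen 1, encoded by *Nid1* (ENSMUSG00000005397, chromosome 13, 13437551 to 13512269), was at 9852, 8002 and 8404 in KO b/c and 6622, 6655 and 7016 in WT, apart in the same direction (log2 fold change 0.37, standard error 0.083, adjusted p = 0.0815 by limma and 0.00298 by DESeq2). *Nid2*, its paralogue, overlapped between the groups, from 1815 to 2115 normalized counts in KO b/c against 1635 to 2042 in WT, at a log2 fold change of 0.14. *Col15a1* (ENSMUSG00000028339, chromosome 4, 47208161 to 47313167), a collagen that links basement membranes to the fibres around them, was at 11415, 12086 and 12804 in KO b/c and 9425, 9899 and 9931 in WT. In this gene KO b/c replicate 1 was the lowest of its group, yet all 3 were above WT (log2 fold change 0.31, standard error 0.065, adjusted p = 0.0815 by limma and 0.00209 by DESeq2). The related *Col18a1*, whose end fragment is endostatin, was the only one of the 13 genes with a log2 fold change below 0, at -0.15. Its groups overlapped, from 1336 to 1681 normalized counts in KO b/c against 1534 to 1934 in WT.

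**Figure D2:**
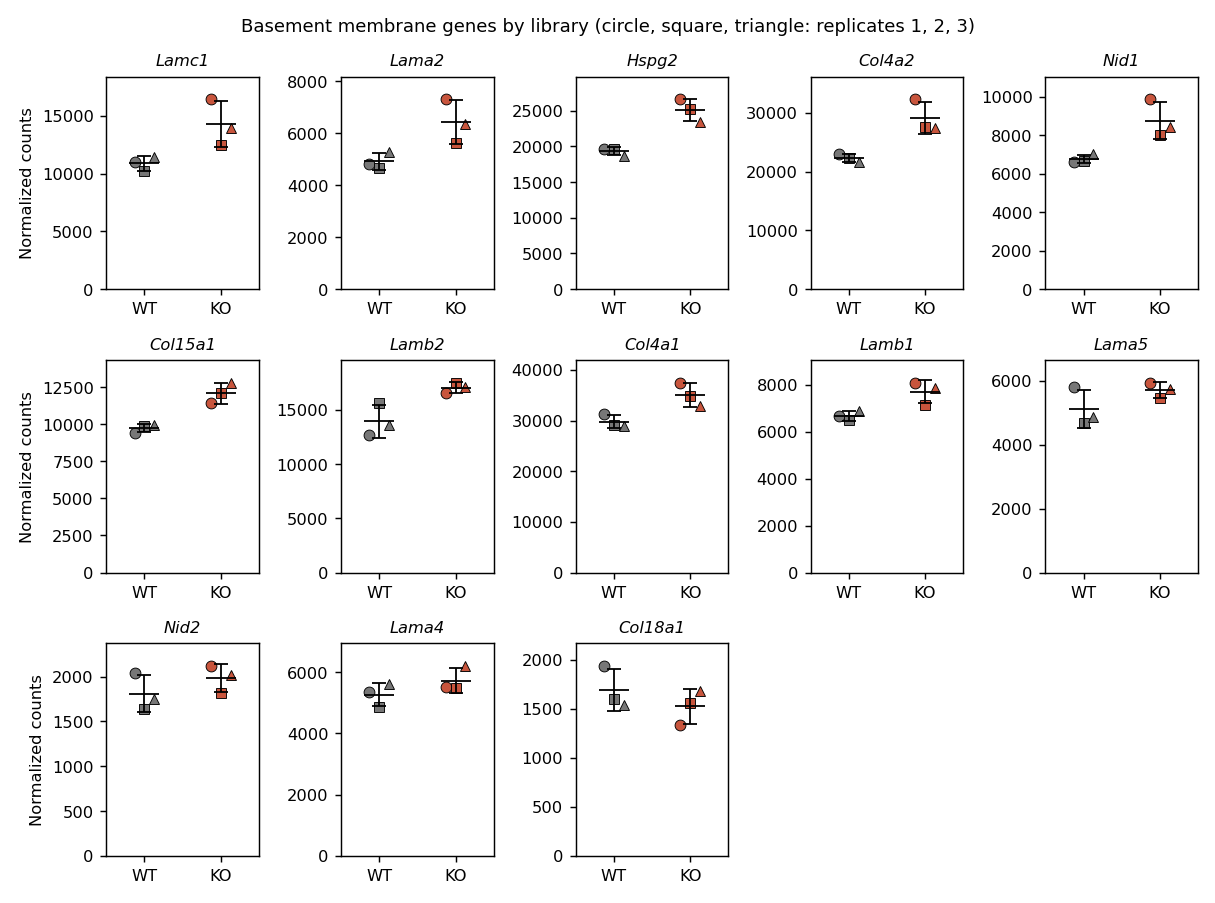
Normalized counts (y axis, from 0) of the 13 basement membrane genes in 3 WT libraries (gray) and 3 libraries labelled KO b/c (red). Circles, squares and triangles are replicates 1, 2 and 3, and bars are the mean ± SD. The red points lie above the gray ones without overlap in the first 9 panels and overlap in *Lama5*, *Nid2*, *Lama4* and *Col18a1*.

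Without the library labelled KO b/c replicate 2, 9 of the 13 basement membrane genes were apart and higher and DESeq2 called 7. In the same libraries, 1529 of the 3345 tested genes of at least 5000 nt were apart and higher. DESeq2 called 510 of these long genes higher. *Lamb1* gained the DESeq2 call (adjusted p = 0.0178), and *Col4a1* (0.0771) and *Lamb2* (0.0837) lost it. The median deviation of the 13 genes from their mean over all libraries, on the log2 scale, was 0.17, 0.02 and 0.13 in KO b/c replicates 1, 2 and 3 and -0.14, -0.17 and -0.13 in WT. The library labelled KO b/c replicate 2 was therefore the one nearest to WT, and still above all 3. KO b/c replicate 1, the library low in adipocyte markers, had the highest deviation as deposited, and also after the correction for length and GC content. KO b/c replicate 3 had the highest after rescaling to the same total (0.15, against 0.05 in KO b/c replicate 1) and after quantile normalization (0.15 against 0.09). Without KO b/c replicate 1 the median log2 fold change of the 13 genes was 0.28 instead of 0.30, and those of *Lamc1* and *Lama2* were 0.28 each instead of 0.38. As deposited, markers of the cells that lie on basement membranes moved less evenly. Of 15 endothelial markers, 5 were apart and higher and 2 apart and lower (median log2 fold change 0.08, summed level 91440 to 97062 normalized counts in KO b/c and 91057 to 93691 in WT). Of 12 pericyte and smooth muscle markers 2 were higher and 1 lower (median 0.09, summed 74684 to 85680 and 63464 to 77023), and of 14 cardiomyocyte markers 6 were higher and 4 lower (median 0.12, summed 4096530 to 4667970 and 3564140 to 3719980). Of all genes tested, 15.6% were apart and higher and 14.6% apart and lower. Corrected for length and GC content, 7 cardiomyocyte markers were apart and higher and 0 lower (median 0.18). Endothelial markers then had 5 higher and 2 lower (median 0.09), and pericyte and smooth muscle markers 2 and 0 (median -0.02). The basement membrane genes had 5 and 0 (median 0.13). With that correction, 11.2% of all genes were apart and higher, and 21.2% were apart in either direction. No marker of these lists was at 0 in any library, and their part in the basement membrane values was not tested.

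Of the 6 fibrillar collagen chains, 5 overlapped between the groups and 0 passed limma. Their log2 fold changes were above 0 with a median of 0.16, where that of all tested genes with a transcript of at least 5000 nt was 0.18, and after the correction for length and GC content 2 of the 6 were below 0, with a median of 0.049. The alpha 1 chain of type V collagen, *Col5a1* (ENSMUSG00000026837, chromosome 2, 27886425 to 28039514), which sets the diameter of type I fibrils, was the one that was apart. It was at 5284, 5093 and 5522 normalized counts in KO b/c and 4506, 3937 and 4201 in WT (log2 fold change 0.33, standard error 0.070, adjusted p = 0.0815 by limma and 0.00301 by DESeq2). The main structural collagen chain *Col1a1* (ENSMUSG00000001506, chromosome 11, 94936224 to 94953042) was at 9606, 10984 and 12049.7 in KO b/c and 9732, 8580.0 and 8081 in WT. KO b/c replicate 1 lay below WT replicate 1, so the groups overlapped (log2 fold change 0.30, standard error 0.10, adjusted p = 0.123 by limma and 0.0335 by DESeq2). Its partner *Col1a2* (ENSMUSG00000029661, chromosome 6, 4504814 to 4541544) was at 13498, 14184 and 16532 and 13915, 12908 and 12689, again with KO b/c replicate 1 inside the WT range (log2 fold change 0.16, standard error 0.086, adjusted p = 0.303 by limma). *Col3a1* (ENSMUSG00000026043, chromosome 1, 45311538 to 45349706), the chain of the thin reticular fibres, had the highest level per kb of the fibrillar chains and was at 31718, 39384 and 39293 in KO b/c and 38308, 33528 and 36756 in WT. KO b/c replicate 1 was the lowest library of all and the other 2 were the highest, and the groups differed by 0.019 on the log2 scale (standard error 0.10, adjusted p = 0.935 by limma), with a sign that turned under 6 of the alternatives, both other scalings among them. *Col5a2* and *Col5a3* had log2 fold changes of 0.057 and 0.16 and overlapped, and that of *Col5a2* was below 0 after rescaling to the same total (-0.015) and after the correction for length. *Col5a2* ran from 3295 to 3649 normalized counts in KO b/c against 3155 to 3651 in WT, and *Col5a3* from 2646 to 3439 normalized counts in KO b/c against 2455 to 2827 in WT.

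Without the library labelled KO b/c replicate 2, *Col5a1* kept its DESeq2 call (adjusted p = 0.00567) and *Col1a1* lost it (0.106). Fibroblasts are the main source of these chains. Of 15 fibroblast markers, 3 were apart and higher (15.6% of all genes) and 3 apart and lower (14.6%), with a median log2 fold change of -0.22. Their summed level was 137378 to 139585 normalized counts in KO b/c and 122086 to 137735 in WT. None was at 0, and 4 of them also stand in another list. The receptor *Pdgfra* was among the higher ones (log2 fold change 0.49, adjusted p = 0.0921 by limma) and *S100a4* among the lower ones (-0.60, adjusted p = 0.0834).

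Type VI collagen makes beaded filaments beside the basement membrane from 3 chains. *Col6a1* (ENSMUSG00000001119, chromosome 10, 76708792 to 76726168) was at 9566, 10180.4 and 10376 normalized counts in KO b/c and 8702, 8517 and 8629 in WT, and *Col6a3* (ENSMUSG00000048126, chromosome 1, 90765923 to 90843971) at 3620.5, 3841 and 3961 and 3005, 3123 and 3171. Both were apart and higher in KO b/c, *Col6a1* by 0.22 on the log2 scale (standard error 0.059, adjusted p = 0.0921 by limma and 0.0205 by DESeq2) and *Col6a3* by 0.30 (standard error 0.062, adjusted p = 0.0815 and 0.00446). The third chain, *Col6a2* (ENSMUSG00000020241, chromosome 10, 76595762 to 76623630), was at 9446, 10639 and 10442 and 9734, 8977 and 8746 and overlapped (log2 fold change 0.15, standard error 0.072, adjusted p = 0.242 by limma). *Col8a1* (ENSMUSG00000068196, chromosome 16, 57624258 to 57754737), a network collagen of vessel walls, was at 1599, 1007 and 1099 in KO b/c and 1096, 926 and 1091 in WT. Its difference rested on KO b/c replicate 1, without which the log2 fold change was 0.024 instead of 0.22 (standard error 0.16, adjusted p = 0.437 by limma). The fibril-associated collagens *Col12a1* and *Col14a1* overlapped between the groups, at log2 fold changes of 0.11 and 0.17. *Col12a1*, with 167 to 225 normalized counts in KO b/c against 160.1 to 196 in WT, had the lowest level per kb of the 42 genes, and *Col14a1* ran from 1978 to 2521 normalized counts in KO b/c against 1820.4 to 2143 in WT. Without the library labelled KO b/c replicate 2, *Col6a3* kept its DESeq2 call (adjusted p = 0.0199) and *Col6a1* lost it (0.0613).

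Glycoproteins and elastic fibre proteins were split. *Fbn1* (ENSMUSG00000027204, chromosome 2, 125300594 to 125507993), whose product fibrillin 1 forms the microfibrils that carry elastin, was at 6946, 6607 and 6929.9 normalized counts in KO b/c and 5837, 5273 and 5710.5 in WT. It was apart and higher in KO b/c (log2 fold change 0.29, standard error 0.063, adjusted p = 0.0815 by limma and 0.00543 by DESeq2). *Fn1*, encoding the adhesive glycoprotein fibronectin, was also apart as deposited, from 4505 to 4763 normalized counts in KO b/c against 3607 to 4436 in WT. It had a log2 fold change of 0.20 and no call by any of the 3 tests, and overlapped after rescaling to the same total.

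The matricellular proteins periostin and SPARC, which bind collagen and regulate its assembly, had log2 fold changes below 0. Periostin, encoded by *Postn* (ENSMUSG00000027750, chromosome 3, 54361109 to 54391037) and made by activated fibroblasts, was at 4072, 4222 and 4635 in KO b/c and 7014, 4375 and 6356 in WT. WT replicates 1 and 3 were far above all other libraries, while WT replicate 2 lay within the KO b/c range. Its log2 fold change came to -0.43 (standard error 0.16, adjusted p = 0.148 by limma and 0.0194 by DESeq2), and the DESeq2 call was lost without the library labelled KO b/c replicate 2 (0.0872). *Sparc* (ENSMUSG00000018593, chromosome 11, 55394500 to 55423183) had the highest level of the 42 genes, 17399.7 normalized counts per kb, and was at 35245, 36623 and 39147 in KO b/c and 49809.5, 37276 and 42016 in WT. It showed the same order, with WT replicates 1 and 3 highest and WT replicate 2 within the KO b/c range (log2 fold change -0.21, standard error 0.11, adjusted p = 0.283 by limma). By median deviation, markers of dividing cells were also highest in WT replicates 1 and 3. WT replicate 2 was nearer to the KO b/c libraries, and above all of them by this measure. By summed level the lowest WT library lay below all of them. Of 18 markers, 9 were apart and lower in KO b/c (14.6% of all genes) and 0 higher (15.6%), with a median log2 fold change of -1.01. Their summed level was 3404 to 3752 normalized counts in KO b/c and 3357 to 8819 in WT. Their median deviation was 1.48, -0.22 and 0.42 in WT replicates 1, 2 and 3 and between -0.91 and -0.32 in KO b/c. None was at 0, and their part in the values of *Postn* and *Sparc* was not tested.

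Elastin, the product of *Eln* (ENSMUSG00000029675, chromosome 5, 134702593 to 134747323), was at 8207, 11437 and 13972 in KO b/c and 13491, 13357 and 10629 in WT. The KO b/c libraries held both the lowest and the highest value (log2 fold change -0.18, standard error 0.18, adjusted p = 0.582 by limma), and without KO b/c replicate 1 the log2 fold change was 0.026. *Thbs1*, encoding thrombospondin 1, overlapped, from 544 to 835 normalized counts in KO b/c against 607 to 846 in WT, at a log2 fold change of -0.027.

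The small leucine-rich proteoglycans coat collagen fibrils and limit their fusion. *Bgn* (ENSMUSG00000031375, chromosome X, 73483602 to 73495933), encoding biglycan, was at 11044, 10956 and 11207 in KO b/c and 10755, 10079 and 9394 in WT. It was apart by a narrow margin (log2 fold change 0.14, standard error 0.067, adjusted p = 0.25 by limma and 0.236 by DESeq2). Decorin and lumican are neighbours on chromosome 10, 46985 bases apart and on the same strand. *Dcn* (ENSMUSG00000019929, chromosome 10, 97479609 to 97518143) was at 19862, 19799 and 21901 in KO b/c and 18524, 20905 and 22885 in WT, and *Lum* (ENSMUSG00000036446, chromosome 10, 97565128 to 97572703) at 5542, 6119 and 6799 and 6324, 6888 and 8084. Both overlapped, with log2 fold changes of -0.014 (standard error 0.090, adjusted p = 0.946 by limma) and -0.20 (standard error 0.11, adjusted p = 0.28).

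Among the 5 matrix enzymes the log2 fold changes ran from -0.047 to 0.15, 1 gene was apart and 0 were called by limma, edgeR or DESeq2. *Mmp2* (ENSMUSG00000031740, chromosome 8, 92827291 to 92853420), a gelatinase that cuts type IV collagen, was at 6709, 6291 and 6803 in KO b/c and 5712, 6077 and 6267 in WT, apart by a narrow gap (log2 fold change 0.13, standard error 0.064, adjusted p = 0.247 by limma). *Loxl1* (ENSMUSG00000032334, chromosome 9, 58287738 to 58313186), a lysyl oxidase of elastic fibres, was at 3078, 3637 and 3374 and 3495, 3640.3 and 3275, with nearly equal values in the libraries labelled replicate 2 of each genotype (log2 fold change -0.047, standard error 0.078, adjusted p = 0.756 by limma). *Loxl2* (ENSMUSG00000034205, chromosome 14, 69609068 to 69695834), which crosslinks type IV collagen, was at 2053, 1666 and 1983 and 2109, 1356 and 1741. The lowest and the highest of its 6 values were both from WT (log2 fold change 0.15, standard error 0.15, adjusted p = 0.599 by limma). *Lox*, the founding lysyl oxidase, and *Mmp14*, the membrane-bound activator of *Mmp2*, overlapped at log2 fold changes of 0.12 and -0.042. *Lox* ran from 334 to 439.9 normalized counts in KO b/c against 278 to 392 in WT, and *Mmp14* from 1369 to 1936 normalized counts in KO b/c against 1576 to 1814 in WT.

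The inhibitors differed among themselves. TIMP3 is the inhibitor that stays bound to the matrix, and *Timp3* (ENSMUSG00000020044, chromosome 10, 86300372 to 86349506) was at 9354, 4894 and 5373 normalized counts in KO b/c and 4501, 4441 and 4571 in WT. The WT values were nearly equal and all KO b/c values lay above them, but KO b/c replicate 1 stood far above the other 2. For *Timp3* the log2 fold change came to 0.48 (standard error 0.21, adjusted p = 0.206 by limma and 0.249 by DESeq2), 0.19 without KO b/c replicate 1 and 0.65 without the library labelled KO b/c replicate 2, where DESeq2 called it (adjusted p = 0.00703). *Timp1* (ENSMUSG00000001131, chromosome X, 20870166 to 20874735), induced in injury, was the inhibitor with the lowest level, at 105, 131 and 149 in KO b/c and 199, 133 and 224 in WT. WT replicates 1 and 3 were again highest, and WT replicate 2 was within the KO b/c range (log2 fold change -0.50, standard error 0.22, adjusted p = 0.206 by limma and 0.126 by DESeq2). *Timp2* (ENSMUSG00000017466, chromosome 11, 118301069 to 118355740) was at 6650.4, 7272 and 7246 and 6053, 6654 and 6765, with KO b/c replicate 1 inside the WT range (log2 fold change 0.12, standard error 0.069, adjusted p = 0.327 by limma). The annotation places *Syn1* over the bases before *Timp1* and *Syn3* over those before *Timp3*, and whether reads were counted by strand is not given in the sources used here.

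**Figure D3:**
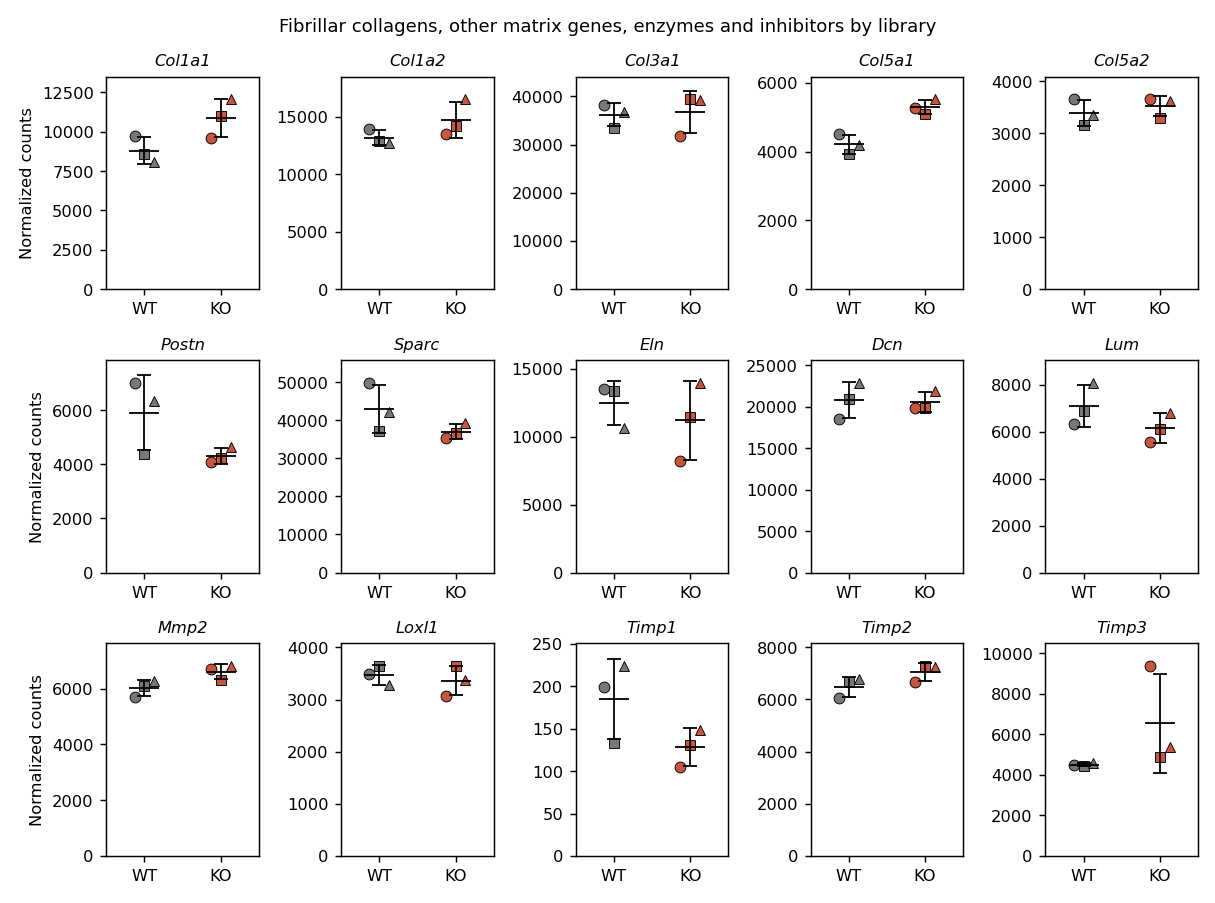
Normalized counts (y axis, from 0) of 15 fibrillar collagen, glycoprotein, proteoglycan, enzyme and inhibitor genes in 3 WT libraries (gray) and 3 libraries labelled KO b/c (red). Circles, squares and triangles are replicates 1, 2 and 3, and bars are the mean ± SD. *Col5a1*, *Mmp2* and *Timp3* are apart, KO b/c replicate 1 stands at 9354 in *Timp3*, and WT replicates 1 and 3 stand highest in *Postn* and *Timp1*.

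The 3 main roles were set side by side within each library. The median deviation was -0.03, 0.11 and 0.17 for the fibrillar collagens in KO b/c replicates 1, 2 and 3 and 0, -0.12 and -0.15 in WT. For the 8 enzymes and inhibitors it was -0.07, 0.01 and 0.06 in KO b/c and -0.01, -0.12 and -0.003 in WT. As deposited, the fibrillar collagens, and the enzymes and inhibitors, overlapped between the genotypes, and the basement membrane genes did not. Corrected for length and GC content, the basement membrane genes overlapped as well, at 0.11, -0.07 and 0.08 in KO b/c and -0.007, -0.12 and -0.05 in WT. The difference of basement membrane minus fibrillar collagen deviations was 0.21, -0.10 and -0.04 in KO b/c and -0.14, -0.05 and 0.02 in WT, which overlapped, so basement membrane genes were not shown to differ from fibrillar collagens in their response. Basement membrane minus enzymes and inhibitors was 0.24, 0.01 and 0.07 in KO b/c and -0.13, -0.05 and -0.13 in WT, which did not overlap as deposited. Corrected for length and GC content, it was 0.14, -0.07 and 0.04 against 0.06, 0.03 and -0.06, which overlapped. These scores over chosen genes were not tested.

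Ratios of chains that share a molecule or a sheet cancel the scaling between libraries. Of 13 ratios of normalized counts per kb, 7 did not overlap between the genotypes, beside 26.1% of the 861 pairs that the 42 genes form. The ratio of *Col5a1* to *Col5a2* was 1.14, 1.22 and 1.20 in KO b/c replicates 1, 2 and 3 and 0.973, 0.983 and 0.986 in WT, or 1.19 ± 0.040 against 0.981 ± 0.007 (SD, n = 3 per group). The ratio of *Col4a2* to *Col4a1* was 0.883, 0.812 and 0.853 in KO b/c and 0.756, 0.785 and 0.767 in WT, or 0.850 ± 0.036 against 0.769 ± 0.015. Partner chains of type V and of type IV collagen therefore stood in a different ratio in each KO b/c library than in each WT library. *Col1a1* to *Col1a2* was 0.666 ± 0.029 in KO b/c and 0.602 ± 0.028 in WT, and *Col3a1* to *Col1a1* was lower in KO b/c, 3.61 ± 0.19 against 4.40 ± 0.39. *Lama2* to *Lama4* was 0.707 ± 0.107 against 0.587 ± 0.018, where KO b/c replicate 1 at 0.831 widened the spread. These 5 ratios were also apart, in the same direction, after the correction for length and GC content, where 6 of the 13 did not overlap. The share of 26.1% is of values as deposited. No share over all pairs was computed after the correction, so these counts have none beside them. *Nid2* to *Nid1* was lower in KO b/c only as deposited (0.284 ± 0.016 against 0.335 ± 0.044), and *Col6a3* to *Col6a1* was higher as deposited and lower after the correction. The other 6, among them *Lamb2* to *Lamb1* and those of *Timp2* and *Timp3* to *Mmp2*, overlapped. An exact two-sided permutation test of any of these ratios cannot give a p below 0.1.

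**Figure D4:**
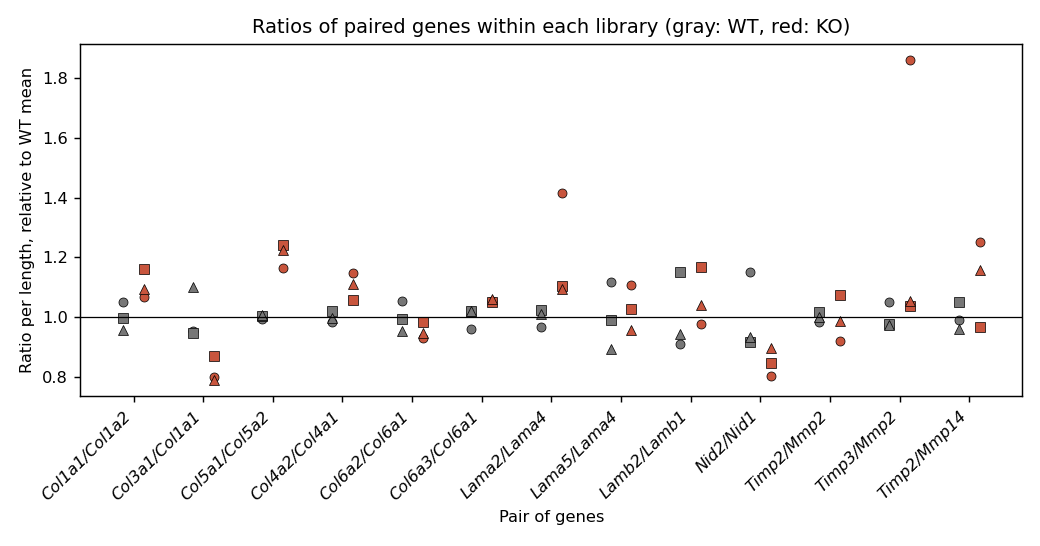
Ratios of normalized counts per kb between paired genes (x axis) in each library, divided by the WT mean of that ratio (y axis, linear, not from 0), in 3 WT libraries (gray) and 3 libraries labelled KO b/c (red). Circles, squares and triangles are replicates 1, 2 and 3. The groups do not overlap in 7 of the 13 pairs, among them *Col5a1*/*Col5a2* and *Col4a2*/*Col4a1*, and KO b/c replicate 1 stands apart in *Lama2*/*Lama4* and *Timp3*/*Mmp2*.

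Most matrix genes have long transcripts, and fold changes in these libraries moved with transcript length. Over all genes tested with a known length, which share the same 6 libraries and are not independent, Spearman's rho between transcript length and log2 fold change was 0.45 (n = 15978 genes), and over the 42 genes it was 0.57. Of the tested genes with a transcript of at least 5000 nt, 39.9% were apart and higher in KO b/c, with a median log2 fold change of 0.18. Of the 27 members that long, 13 were (48.1%), with a median of 0.21. Among the shorter genes, 9.18% of all those tested and 4 of 15 members were apart and higher. The share of long members that were apart was thus near that of long genes in general. When each library's dependence on length and GC content was fitted over all genes and subtracted, the log2 fold change came closer to 0 for 32 of the 42 genes and changed sign for 6, which left 26 above 0 (52.4% of all genes), and rho over the 42 genes was 0.11.

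After this correction 9 of the 42 genes were apart and higher in KO b/c, beside 11.2% of all genes, and 1 was apart and lower. These 10 stand beside 21.2% of all genes in either direction. Of these, 8 were apart before it as well. Among basement membrane genes 5 of 13 remained apart, namely *Col4a2*, *Col15a1*, *Lamb2*, *Nid1* and *Hspg2*, with corrected log2 fold changes of 0.24, 0.23, 0.19, 0.21 and 0.13, and the median of the 13 was 0.13. *Lamc1* and *Lama2*, which had the largest fold changes as deposited, overlapped at 0.19 and 0.13. Among fibrillar collagens 0 of 6 were apart, with a median of 0.05 and a value of 0.14 for *Col5a1*. The long genes *Fbn1*, *Fn1* and *Col6a3* came to 0.029, -0.0021 and 0.069 and overlapped, while the shorter *Col6a1* stayed apart at 0.21. *Bgn*, *Timp2* and *Timp3* were apart and higher at 0.19, 0.12 and 0.39. *Postn* became the one gene apart and lower, at -0.52. No member passed limma after the correction, where the lowest adjusted p of the 42 was 0.253 and 7 were higher and 1 lower at an unadjusted p under 0.05, beside 7.75% and 6.69% of all genes. Without the library labelled KO b/c replicate 2, 13 were apart and higher (17.3% of all genes) and 1 lower (15.1%), of which 8 were basement membrane genes. The source of the relation with length was not tested.

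**Figure D5:**
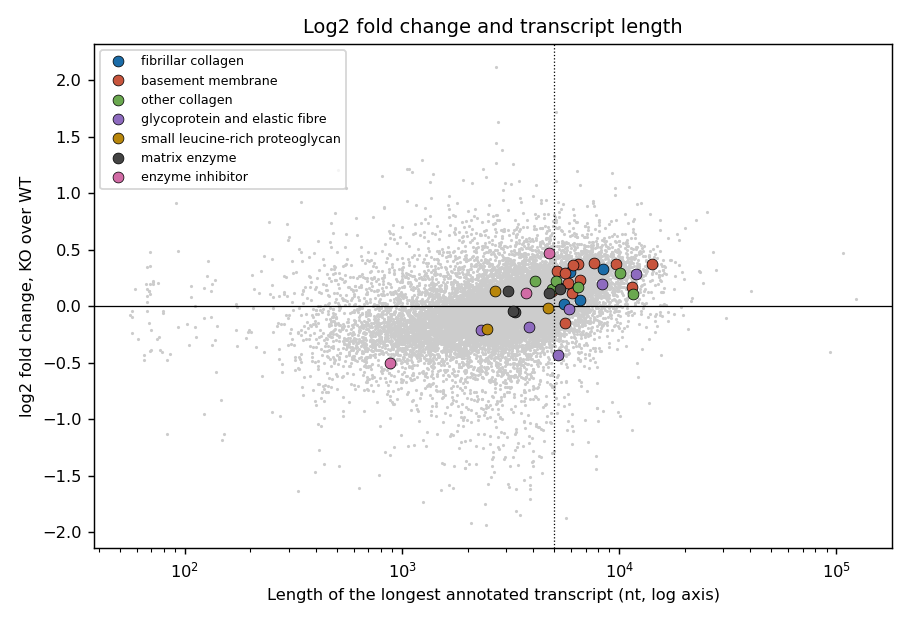
Log2 fold change (y axis, KO b/c over WT) against the length of the longest annotated transcript (x axis, nt, log axis) for all genes tested (gray) and the 42 matrix genes (coloured by role). The dotted line is at 5000 nt. Most basement membrane points lie to the right of the line and above 0. The median of all tested genes with a transcript of at least 5000 nt is 0.18.

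The rest of the matrix pathway was read from 6 lists, in which 0 genes passed limma. Of all genes tested, 15.6% were apart and higher and 14.6% apart and lower. After the correction for length and GC content, 11.2% were apart and higher. Integrins, other laminin chains and other basement membrane proteins and receptors had 10 of 30 measured genes apart and higher and 1 lower, with a median log2 fold change of 0.12. Corrected for length and GC content, the median was 0.017, with 6 higher and 2 lower. In this list the collagen receptor *Itga2* was at 38.7, 40.3 and 36.4 normalized counts in KO b/c and 23.6, 19.8 and 24.7 in WT, with no overlap (log2 fold change 0.74, standard error 0.23, adjusted p = 0.116 by limma). TGF-beta signalling, a main inducer of collagen synthesis, had 9 of 17 genes apart and higher and 0 lower, and all 17 log2 fold changes were above 0 (median 0.15). Its largest was *Tgfbr3*, the co-receptor betaglycan, at 2419, 1579 and 1789 in KO b/c and 1166, 1305 and 1203 in WT (log2 fold change 0.63, standard error 0.14, adjusted p = 0.0815 by limma and 0.000598 by DESeq2). The median of the TGF-beta list was 0.07 after the correction for length and GC content, with 3 of 17 apart. The median transcript of this list was 5116 nt long. Of the tested genes with a transcript of at least 5000 nt, 39.9% were apart and higher as deposited, with a median of 0.18. The activity of the pathway was not measured.

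Other microfibril and matrix glycoproteins had 7 of 34 genes apart and higher and 2 lower (median 0.04, corrected 0.022), with the largest log2 fold change in *Mfap4*, a microfibril protein, which was lower in all 3 KO b/c libraries (-0.45, adjusted p = 0.152 by limma and 0.0486 by DESeq2). Proteases and inhibitors outside the 42 had 3 of 26 higher and 1 lower (median 0.09, corrected 0.030). The largest in this list was *Timp4*, the inhibitor most typical of the heart, at 1648, 383.5 and 655.4 in KO b/c and 384.2, 460.5 and 355.7 in WT. KO b/c replicate 1 again stood far above the others, as in *Timp3*, and the groups overlapped (log2 fold change 0.90, adjusted p = 0.244 by limma). Enzymes that modify and process collagen had 3 of 28 higher and 2 lower (median 0.01, corrected 0.029), led by the prolyl hydroxylase *P3h2* with 262, 251.2 and 266.1 in KO b/c and 174.2, 203.7 and 190.8 in WT (log2 fold change 0.46, adjusted p = 0.0851 by limma and 0.0407 by DESeq2). Collagen chains outside the 42 had 1 of 22 higher and 1 lower (median -0.10, corrected -0.21), and the largest log2 fold change there, *Col6a5* at -0.84, rested on 18.6 normalized counts or fewer in every library. Of the remaining markers, 4 of 11 macrophage genes were apart and lower (14.6% of all genes) and 0 higher (15.6%), with a median of -0.24. Of the others, 0 of 9 lymphocyte, 0 of 8 mesothelial and 0 of 7 adipocyte markers were apart. None of these was at 0 in any library.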

How the data were processed

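RNAseq values came from hearts of 3 female KO b/c and 3 female WT mice, grouped by the labels. The deposited values are a normalized signal: the authors scaled the reads per gene with 1 size factor a library. The submitters' processing notes name Trimmomatic 0.36, STAR 2.5.2b, Subread 1.5.2 with featureCounts, DESeq2 and GRCm38, with no order or settings. Paired reads came from an Illumina HiSeq. Dividing by the value of 1 read gave whole numbers, to within 0.001 reads, for 100% of values in each library. The reads on genes were 48437507, 42619258 and 49100802 in KO b/c replicates 1, 2 and 3 and 42037397, 41508902 and 41364857 in WT, and counting errors cover counting only. No pair of libraries shared more than 1.40% of values.

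The main test was that of limma 3.58.1 (R 4.3.3), two-sided and with a variance trend, leaving out genes whose mean was under 10 normalized counts, after log2 transformation with a pseudocount of 1, with Benjamini-Hochberg adjustment over 16016 genes. The p-values measure the spread between these mice. edgeR 4.0.16 and DESeq2 1.42.0 were run on the recovered reads as alternatives, beside other pseudocounts, filters, scalings and weights, a replicate block, each library left out, and a correction that subtracts each library's fitted dependence on transcript length and GC content (splines of 5 degrees of freedom). Leaving out KO b/c replicate 2 together with DESeq2 or the correction was chosen after seeing the data. Symbols, positions and lengths are from GENCODE M21, and promoters from RefSeq. The main limma fit, limma with the length and GC correction, edgeR and DESeq2 were tested on simulated data. The other alternatives, the counts of genes apart, the ratios and the motif shares were not.

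The 42 genes, the pathway lists and the marker lists were chosen with earlier results of these data known. Genes given in full are, in each role, the 2 with the largest absolute log2 fold change, the 2 with the highest mean normalized count, and any with an adjusted p under 0.05 by limma, edgeR or DESeq2, which made 29 of the 42. From each pathway list the gene with the largest absolute log2 fold change was named, since none passed limma, and *Slc4a4*. *Lamb1*, *Fn1*, *Pdgfra*, *S100a4*, *Ucp1* and the corrected values of *Timp2* were described after their values were seen.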

Additional observations from a re-analysis of the deposited data

How the results depend on the processing

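The number of the 42 genes called at an adjusted p under 0.05 was 0 by limma and stayed 0 under each limma alternative, under edgeR and with each library left out. It was 14 by DESeq2 (13.2% of the genes it tested) and 11, all higher, by DESeq2 without KO b/c replicate 2 (7.16% higher). The cause of this difference between tests was not tested. The log2 fold change of *Slc4a4* ran from -1.51 to -0.59 with each library left out, and only without KO b/c replicate 2 did it pass limma (adjusted p = 0.0121). The median log2 fold change of the basement membrane genes was 0.30, and it was 0.22 after rescaling to the same total, 0.13 after the length and GC correction and 0.14 with the correction and without KO b/c replicate 2. For the fibrillar collagens it was 0.16, then 0.049 with the correction and 0.018 when KO b/c replicate 2 was left out too. For enzymes and inhibitors it was 0.12, then 0.047 after rescaling and 0.044 with the correction. With each library left out, basement membrane genes had a median of 0.27 to 0.32, fibrillar collagens one of 0.11 to 0.23, and enzymes and inhibitors one of -0.015 to 0.16, which was 0.055 without KO b/c replicate 3 and -0.015 without WT replicate 2. By their construction the correction removes what moves with length, and rescaling gives every library the same total.

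Of 522 values of the 29 genes given in full, under alternatives, 14 gained a call, all by DESeq2, and 12 changed sign, while 24 of the 29 genes never changed sign. None had a call to lose, since 0 passed limma, and a kept sign says nothing of the size: the correction took *Fbn1* from 0.29 to 0.029. The log2 fold change of *Col3a1* was -0.054 after rescaling, -0.026 after quantile normalization, -0.10 after the correction, and -0.034, -0.032 and -0.035 without KO b/c replicate 2, KO b/c replicate 3 or WT replicate 2. With each library left out, *Eln* ran from -0.36 to 0.026, *Dcn* from -0.094 to 0.059, *Loxl1* from -0.11 to 0.015 and *Loxl2* from -0.017 to 0.30, and the sign changed without KO b/c replicate 1 in *Eln*, *Dcn* and *Loxl1*, without KO b/c replicate 2 or WT replicate 3 in *Dcn*, and without WT replicate 2 in *Loxl2*. *Col3a1* reached 0.12 without KO b/c replicate 1.

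The mice are different animals, and the labels do not say whether the replicate numbers pair them. Same-numbered libraries correlated at 0.23, 0.072 and -0.029 in their deviations from the group means, and only KO b/c replicate 1 correlated best with its own number. With the replicate block limma called 0 of the 42 genes. A difference below the spread between 3 mice was not detectable, and depth was not the limit for these genes.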
